A study of Homo sapiens with 9 samples.

Results

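The 10 genes described here encode folding helpers of the endoplasmic reticulum (ER), the oxidases that feed disulfide bonds into it, and regulators of the stress response that controls both. HSPA5, HSP90B1, CALR and SDF2L1 are chaperones or chaperone partners, PDIA4 is a disulfide isomerase, XBP1, DNAJB9 and HERPUD1 belong to the unfolded protein response and to ER-associated degradation, and ERO1A and ERO1B are the ER oxidoreductin paralogs. They were chosen by gene symbol, with earlier results of these data known. Each symbol matched a single row among the 60683 genes of the deposited count table. All 10 had enough counts to be tested, among 22672 genes tested. The libraries came from Hep3B cells, a human liver cancer line, and RNA was sequenced after 24 hours in 3 groups of 3 replicates. The groups were DMSO vehicle at 20% O2, DMSO vehicle at 1% O2, and 32-134D, a small-molecule inhibitor of the hypoxia-inducible factors (HIFs), at 1% O2. No group combined 32-134D with 20% O2, so the effect of the compound was measured only in hypoxic cells, and all cells were of 1 cell line. The labels call the replicates biological without saying that they were separate cultures, so the p-values measure only the spread between these libraries.

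Proteins that enter the secretory pathway fold in the ER, where HSPA5 (BiP, GRP78) binds unfolded chains and HSP90B1 (GRP94) completes the folding of selected clients. Disulfide bonds are made by protein disulfide isomerases, which ERO1A and ERO1B reoxidise by passing electrons to molecular oxygen. When unfolded chains accumulate, the sensors IRE1, PERK and ATF6 start the unfolded protein response, in which XBP1 and cleaved ATF6 bind ER stress elements in the promoters of chaperone genes. Hepatocytes secrete most plasma proteins and so carry a heavy folding load, and ERO1A is also known as a HIF target.

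The ER stress element (ERSE) is the promoter sequence through which ATF6, with the CCAAT-binding factor NF-Y, raises chaperone genes, and ERSE-II is a compact relative of it known from HERPUD1. Both were searched for, on both strands, in the RefSeq promoter windows of the 10 genes (GRCh38.p14, 250 bases before to 50 after the transcript start). The genes had 12 windows, since XBP1 and PDIA4 each had 2 starts. The letters searched were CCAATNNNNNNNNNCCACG for ERSE and ATTGGNCCACG for ERSE-II, and no window held both. ERSE was present in 5 of the 10 genes and in 27 of 35116 windows genome-wide (0.0769%). ERSE-II was present in 2 genes and in 19 windows genome-wide (0.0541%). Together the elements were found in 7 of the 10 genes, namely HSPA5, HSP90B1, XBP1, CALR, ERO1B, HERPUD1 and SDF2L1, against 0.131% of all windows. Neither was in the windows of DNAJB9, PDIA4 or ERO1A. The 7 counts genes, while the background share counts windows. The elements are known from genes of this kind, so the contrast was largely set beforehand and is not a test. The matches are descriptions of letters and not measured binding, and their absence from a window of this length says nothing about the factor.

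The stretches that carry the elements are printed 5′ to 3′ on the strand of the gene, with the element in capitals. Elements that begin with CGTGG lie on the opposite strand. A stretch of 30 bases is given where 60 bases would have met an annotated exon, and those of HSP90B1, XBP1 and ERO1A still overlap one.
HSPA5, ERSE, chr9:125241370-125241429, minus strand, bases -86 to -27: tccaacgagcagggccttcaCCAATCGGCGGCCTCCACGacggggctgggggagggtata
HSP90B1, first ERSE, chr12:103930211-103930240, plus strand, bases -199 to -170: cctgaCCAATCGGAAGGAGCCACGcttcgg
HSP90B1, second ERSE, chr12:103930316-103930345, plus strand, bases -94 to -65: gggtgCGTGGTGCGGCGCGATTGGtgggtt
XBP1, ERSE, chr22:28800597-28800626, minus strand, bases -57 to -28: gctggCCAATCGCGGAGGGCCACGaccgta
CALR, ERSE, chr19:12938364-12938423, plus strand, bases -245 to -186: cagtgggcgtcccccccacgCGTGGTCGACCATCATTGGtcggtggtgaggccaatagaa
ERO1B, ERSE, chr1:236282149-236282208, minus strand, bases -250 to -191: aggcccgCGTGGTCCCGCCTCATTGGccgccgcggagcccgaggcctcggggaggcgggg
HERPUD1, ERSE-II, chr16:56932016-56932045, plus strand, bases -126 to -97: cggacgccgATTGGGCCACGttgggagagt
SDF2L1, ERSE-II, chr22:21642090-21642149, plus strand, bases -212 to -153: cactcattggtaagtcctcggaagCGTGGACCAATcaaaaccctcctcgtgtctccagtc

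HIFs bind the core letters ACGTG or GCGTG, which are short and common. On either strand ACGTG was in 7518 of the 35116 windows (21.4%) and in 6 of the 10 genes, and GCGTG was in 12832 windows (36.5%) and also in 6 of the genes. The last letters of ERSE and ERSE-II can themselves be part of either core read on the other strand, and ACGTG overlaps itself in the palindrome CACGTG. The ERO1A cores upstream of its start are shown because ERO1A is the HIF target of the set and lacks both stress elements in this window. Their capitals mark the core as it reads on the strand of the gene, with the core itself on the opposite strand.
ERO1A, ACGTG core, chr14:52695655-52695684, minus strand, bases -126 to -97: cgggcgccgcggCACGTccacaggctgggt
ERO1A, GCGTG core, chr14:52695711-52695740, minus strand, bases -182 to -153: gtgcgtcagcctCACGCggcgggaaggaac

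**Figure D1:**
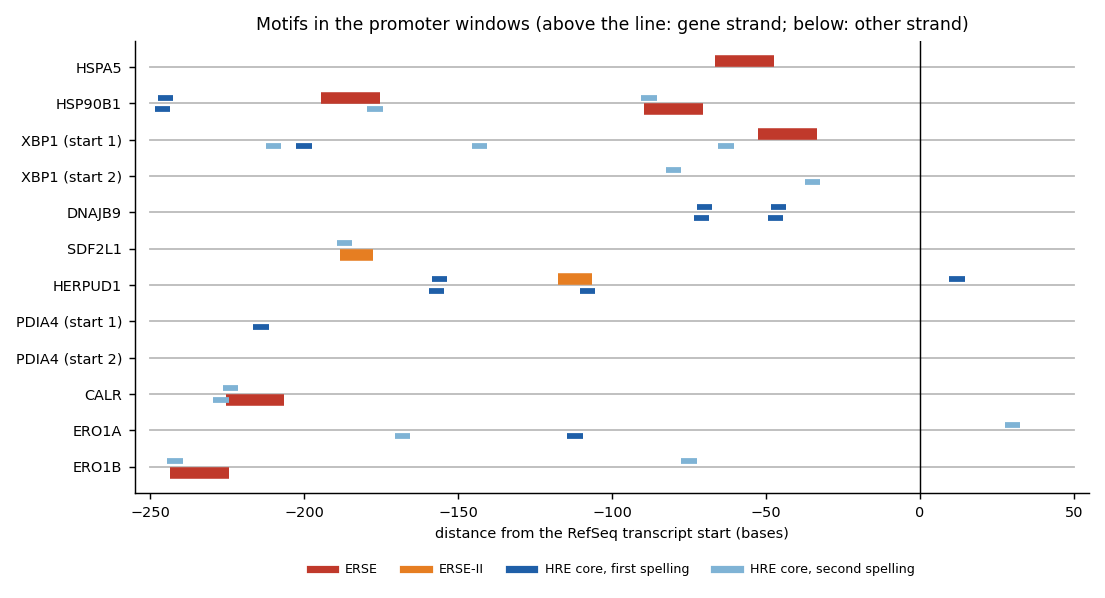
Positions of ERSE (red), ERSE-II (orange) and the HIF core letters ACGTG (dark blue, first spelling) and GCGTG (light blue, second spelling) in the 12 promoter windows of the 10 genes, by distance in bases from the RefSeq transcript start (0); marks above a line are on the strand of the gene and marks below it on the other strand. A red or orange mark is present in 7 of the 10 genes and in none of the windows of DNAJB9, PDIA4 or ERO1A.

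The genes lie apart in the genome, at these positions on GRCh38 (GENCODE version 29). HSPA5 (ENSG00000044574) spans chr9:125234853-125241330 on the minus strand and HSP90B1 (ENSG00000166598) chr12:103930107-103953645 on the plus strand. CALR (ENSG00000179218) spans chr19:12938578-12944489 on the plus strand, SDF2L1 (ENSG00000128228) chr22:21642261-21644298 on the plus strand and PDIA4 (ENSG00000155660) chr7:149003062-149028641 on the minus strand. XBP1 (ENSG00000100219) spans chr22:28794555-28800597 on the minus strand, DNAJB9 (ENSG00000128590) chr7:108569568-108574850 on the plus strand and HERPUD1 (ENSG00000051108) chr16:56932048-56944863 on the plus strand. ERO1A (ENSG00000197930) spans chr14:52639916-52695900 and ERO1B (ENSG00000086619) chr1:236215555-236281985, both on the minus strand. RefSeq and GENCODE place the start differently in several of them, and GENCODE exons fill all 250 bases before the RefSeq start of HSP90B1, DNAJB9 and ERO1A.

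Total counts ran from 6013980 to 40549699 per library, and levels are given as CPM, counts scaled to a common library size with TMM factors. CA9, a HIF target used as a check of the oxygen labels, was at 27.9 ± 1.14 CPM (SD, n = 3) at 20% O2, 579.8 ± 61.8 at 1% O2 and 56.6 ± 5.68 with 32-134D. The check covers the vehicle groups only, since 32-134D inhibits HIFs. All 8 hepatocyte markers examined were present in every library. They ranged from FGB at 6.86 to 50.9 CPM and TTR at 9.79 to 56.9 to APOB at 377 to 5250 and ALB at 5950 to 10200. These markers summed to 16600 to 18000 CPM at 20% O2, 11600 to 14500 at 1% O2 and 11200 to 16500 with 32-134D. The 9 markers of other cell types summed to 30.8 to 37.7 CPM at 20% O2, 12.2 to 14.0 at 1% O2 and 24.1 to 27.8 with 32-134D. CD3E, VWF and DES were at 0 in every library, and most of the sum was LYZ (7.02 to 29.4 CPM) and COL1A1 (2.73 to 10.4 CPM). This sum moved with the groups, and the hepatocyte sum differed between the vehicle groups without overlap. The part of either in the results was not tested. Replicate 3 of 32-134D stood apart from the other 2 of its group. A chi-square over genes, divided by its degrees of freedom, was 40.5 and 36.2 for its pairs, 2.08 for replicates 1 and 2, and 1.64 to 13.3 in the other groups. In both vehicle groups replicate 1 lay apart to a lesser degree. Its pairs were at 6.72 and 13.3 at 20% O2, against 1.64 for replicates 2 and 3. At 1% O2 they were at 8.63 and 13, against 2.6. Results for 32-134D are also given without it where that changed a call of a named gene or moved a printed value by more than 0.15 on the log2 scale, and for some others.

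Over all 3 groups the 10 genes together took a nearly constant share of the raw counts, taken without TMM factors. The share was 0.369% ± 0.0165 at 20% O2, 0.362% ± 0.00132 at 1% O2 and 0.354% ± 0.0162 with 32-134D (SD, n = 3). The TMM factors were 1.048 to 1.065 at 20% O2, 0.9007 to 0.9305 at 1% O2 and 1.032 to 1.041 with 32-134D. CPM levels use these factors, so an equal share stands for a higher CPM at 1% O2 than in the other groups. Individual genes moved in both directions. Per kilobase of exon, the order of the mean levels at 20% O2 was CALR at 515.3 CPM, HSPA5 at 176.8, HSP90B1 at 142.4, PDIA4 at 111.6, XBP1 at 53.9, SDF2L1 at 39.9, ERO1A at 13.8, HERPUD1 at 7.78, DNAJB9 at 4.07 and ERO1B at 0.519. The replicates of neighbours in this order did not overlap at 20% O2. The lengths are unions of all annotated exons, and the spread of replicates does not include any error in them. At 1% O2 CALR was still highest, at 420.3 CPM per kilobase, and ERO1B lowest, at 1.31. XBP1 (103.9) stood above PDIA4 (82.8) there, and ERO1A (55.8), DNAJB9 (34.6) and HERPUD1 (34.5) all stood above SDF2L1 (26.3). The libraries of DNAJB9 (32.3 to 36.8) and HERPUD1 (33.6 to 35) overlapped. With 32-134D the order of the means was that of 20% O2, from CALR at 437.7 CPM per kilobase to ERO1B at 0.797. The lowest library of SDF2L1 there (24.6 to 37.2) met the highest of ERO1A (18.9 to 24.6), both in replicate 3.

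**Figure D2:**
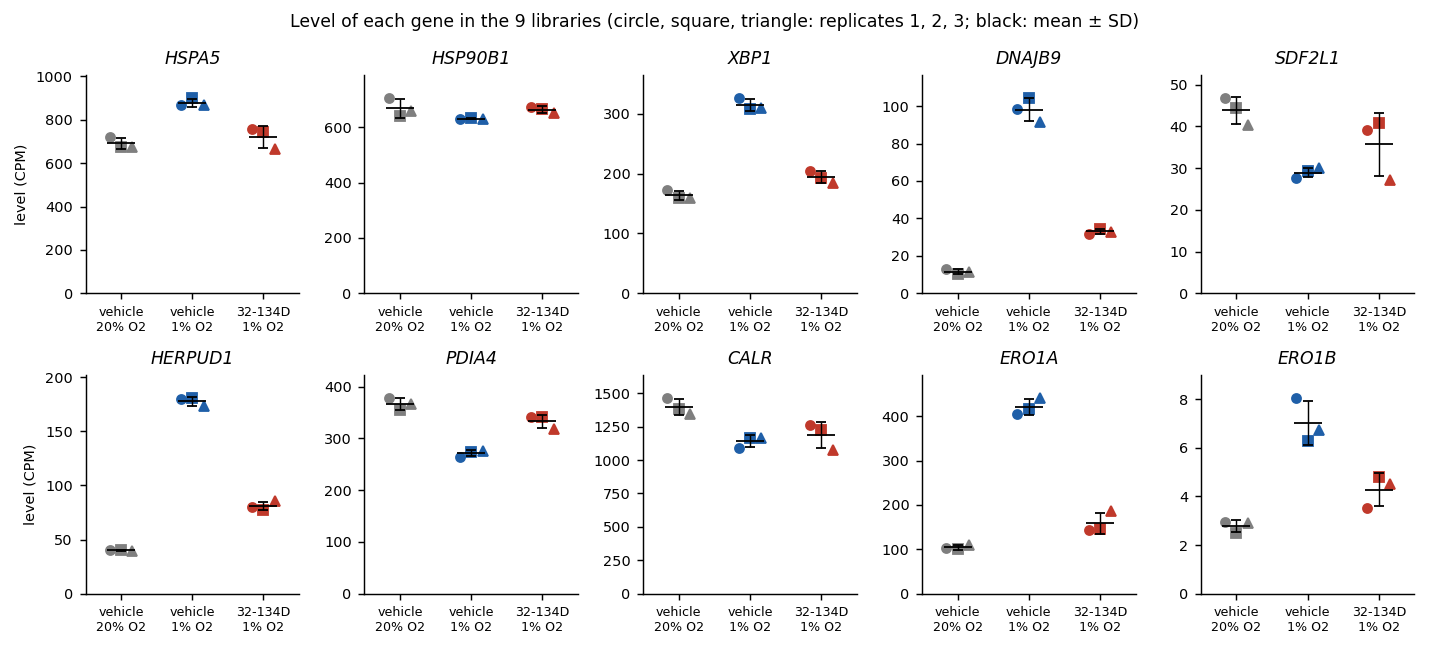
Level of each of the 10 genes in CPM (linear axis from 0, one panel per gene) in the 3 libraries of vehicle at 20% O2 (grey), vehicle at 1% O2 (blue) and 32-134D at 1% O2 (red); the shape gives the replicate and the black bars the mean ± SD. DNAJB9, HERPUD1, ERO1A, XBP1, ERO1B and HSPA5 are highest in the blue group with no overlap, while PDIA4 is lowest there.

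Vehicle at 1% O2 against vehicle at 20% O2 asks how oxygen itself changes these genes. In hypoxia the stress-response genes DNAJB9 and HERPUD1, the transcription factor gene XBP1 and both ERO1 genes rose, by 8.41-fold for DNAJB9 down to 1.93-fold for XBP1. Among the chaperone genes and PDIA4, HSPA5 was 1.27-fold higher, HSP90B1 did not pass the test, CALR and PDIA4 were lower by less than 1.5-fold, and SDF2L1 fell by 1.51-fold. A gene was called with an edgeR FDR below 0.05 over all genes tested and a fold change above 1.5. By this rule 5 of the 10 genes rose, against 19.5% of all genes tested, and 1 fell, against 20.3%. A further 3 passed the FDR alone. With no fold threshold, 6317 of the 22672 genes tested were higher and 5814 lower, against 4412 and 4595 with it. All 10 genes had no overlap between the 2 groups, which held for 60.5% of all genes tested. The median log2 fold change of the 10 genes was 0.65, against 0.00 over all genes. Scaling by total library size in place of TMM shifted the median of all genes by -0.21 and lowered the share of calls that were higher from 49.0% to 34.5%, and no gene of the 10 changed direction.

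32-134D against vehicle, both at 1% O2, asks what the HIF inhibitor does in hypoxic cells. DNAJB9, HERPUD1, XBP1, ERO1A and ERO1B, which had risen in hypoxia, were lower with the compound, by 2.96-fold for DNAJB9 down to 1.62-fold for XBP1, so 5 of the 10 were called lower, against 13.7% of all genes tested. None of the 10 was called higher by edgeR, against 16.2% of all genes, while 2 had an unadjusted p below 0.05 and DESeq2 also called 0. The groups did not overlap in 8 of the 10 genes, as in 56.1% of all genes tested, and the median log2 fold change was -0.49 against -0.01. The 2 comparisons share the hypoxic vehicle libraries, so a chance deviation of those libraries moves both, in opposite directions. With total library size the median of all genes shifted by 0.19 and the share of calls that were higher went from 54.2% to 72.0%. No gene of the 10 changed direction, but the compound call was lost for XBP1 (-0.51) and ERO1B (-0.54). In bulk RNA a change in the make-up of a culture and a change in RNA per cell cannot be told apart.

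**Figure D3:**
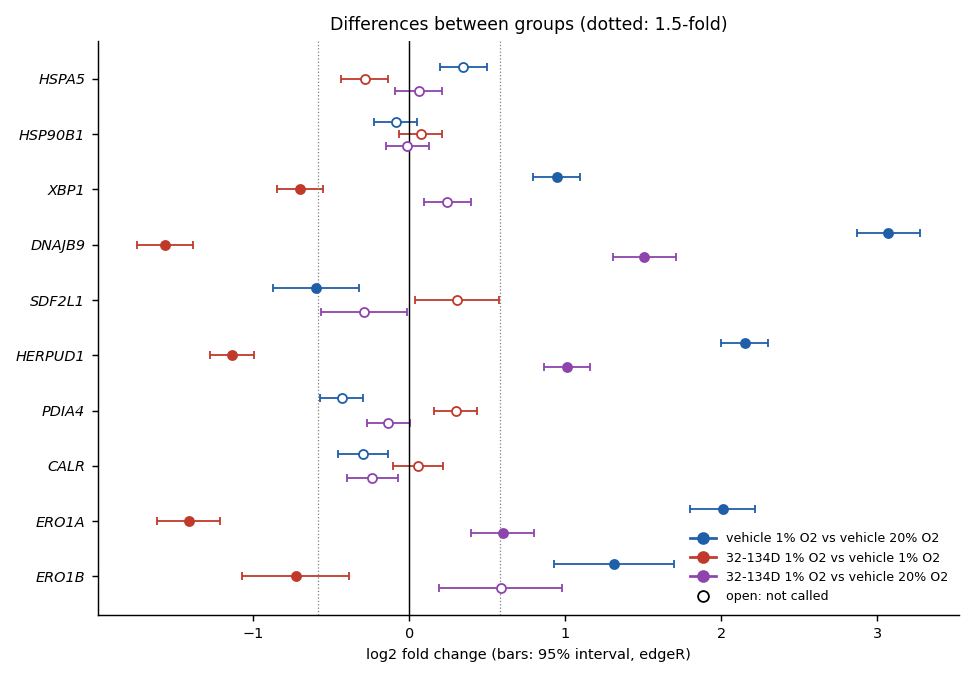
Log2 fold change of each gene (horizontal axis) in hypoxia (blue), with 32-134D against hypoxic vehicle (red) and with 32-134D against normoxic vehicle (purple); bars are 95% intervals from edgeR, filled points passed the FDR and the 1.5-fold threshold (dotted lines) and open points did not. DNAJB9 runs from 3.07 in hypoxia to -1.56 with the compound, and the intervals of HSP90B1 include 0 in all 3 comparisons.

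DNAJB9 (ERdj4) is an ER co-chaperone of HSPA5 that restrains IRE1 and is itself a target of XBP1. Its levels at 20% O2 were 12.8, 10.4 and 11.4 CPM, resting on 179, 66 and 376 counts. At 1% O2 they were 98.2, 104.3 and 91.7 CPM, and with 32-134D they were 31.9, 34.6 and 33.0 CPM. The 3 groups did not overlap, and the 32-134D libraries lay between the vehicle groups. In hypoxia the log2 fold change was 3.07 (95% interval 2.87 to 3.28, edgeR FDR 6.15e-12), the highest of the 10. With the compound it was -1.56 (-1.74 to -1.38, FDR 4.35e-09). DNAJB9 shares 183 exon bases with THAP5 and 99 with PNPLA8, both on the opposite strand, and no strand setting of the counting is given in the sources used here. THAP5 was at 1.49 in hypoxia and -1.01 with the compound, and PNPLA8 at 1.61 and -1.04, so reads of the partners could enter the DNAJB9 count.

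HERPUD1 (HERP) is a membrane protein of the ER that helps deliver misfolded proteins to the degradation machinery, and its promoter carries the ERSE-II printed above. Its levels were 40.2, 40.2 and 39.8 CPM at 20% O2, 179.8, 180.5 and 173.0 CPM at 1% O2, and 79.9, 77.6 and 85.2 CPM with 32-134D. The spread within each group was small beside the gaps between them. HERPUD1 was 4.44-fold higher in hypoxia (log2 2.15, interval 2.0 to 2.30, edgeR FDR 1.18e-11) and 2.20-fold lower with the compound (log2 -1.14, interval -1.28 to -0.99, FDR 9.10e-09).

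XBP1 encodes the transcription factor that IRE1 activates by splicing its mRNA. The gene counts pool spliced and unspliced forms, so they give the amount of XBP1 mRNA and not its splicing. The levels were 172.2, 158.3 and 159.6 CPM at 20% O2, 326.0, 308.2 and 309.3 CPM at 1% O2 and 204.0, 192.3 and 184.7 CPM with 32-134D. The groups did not overlap, and the 32-134D libraries lay nearer to those at 20% O2. The log2 fold change was 0.94 in hypoxia (interval 0.80 to 1.09, edgeR FDR 2.91e-08) and -0.70 with the compound (interval -0.85 to -0.55, FDR 1.10e-06).

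HSPA5, the main chaperone of the ER and the textbook readout of its stress response, varied little. Its levels were 720.7, 676.5 and 676.2 CPM at 20% O2 and 866.6, 900.7 and 869.5 CPM at 1% O2, with no overlap. With 32-134D they were 756.2, 744.7 and 664.2 CPM, all below the hypoxic vehicle and, in replicate 3, below all libraries at 20% O2. The log2 fold change was 0.35 in hypoxia (interval 0.20 to 0.50, edgeR FDR 0.00066) and -0.28 with the compound (interval -0.43 to -0.13, FDR 0.0036). Both passed the FDR and neither reached 1.5-fold, and without replicate 3 of 32-134D the compound value was -0.23 (FDR 0.0048).

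HSP90B1, the HSP90 paralog of the ER, passed the test in none of the 3 comparisons. Its levels were 705.5, 640.9 and 658.6 CPM at 20% O2, 629.7, 631.8 and 628.1 CPM at 1% O2, and 674.0, 664.5 and 649.5 CPM with 32-134D. The lowest library at 20% O2 was 640.9, barely above the highest at 1% O2. The log2 fold change was -0.09 in hypoxia (interval -0.22 to 0.05, edgeR FDR 0.282) and 0.07 with the compound (interval -0.06 to 0.21, FDR 0.380). Both intervals lie inside 1.5-fold. HSP90B1 shares 121 exon bases with C12orf73, which held 3936 counts over all libraries against 148632. HSPA5 and HSP90B1 have processed copies in the genome, of which HSPA5P1 and HSP90B2P held at most 23 and 14 counts in a library.

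CALR encodes calreticulin, a calcium-binding lectin chaperone that retains unfolded glycoproteins, and it had the highest level per kilobase in every group. Its levels were 1462, 1385 and 1348 CPM at 20% O2, 1091, 1167 and 1164 CPM at 1% O2 and 1264, 1225 and 1074 CPM with 32-134D. The hypoxic vehicle libraries were all below those at 20% O2, and the 32-134D group overlapped the hypoxic vehicle through replicate 3. The log2 fold change was -0.29 in hypoxia (interval -0.46 to -0.13, edgeR FDR 0.0040), short of 1.5-fold, and 0.06 with the compound (interval -0.10 to 0.22, FDR 0.559). Without replicate 3 of 32-134D the compound value was 0.13 (FDR 0.116).

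SDF2L1, a partner that stabilises the cycle of HSPA5 with its J-domain proteins, was the 1 gene called lower in hypoxia. Its levels were 46.8, 44.4 and 40.3 CPM at 20% O2 and 27.7, 29.2 and 29.9 CPM at 1% O2, with no overlap. With 32-134D they were 39.1, 40.9 and 27.1 CPM, so that 2 libraries lay near the level at 20% O2 and replicate 3 below the hypoxic vehicle. The log2 fold change in hypoxia was -0.60 (interval -0.87 to -0.32, edgeR FDR 0.00114), a 1.51-fold lower level that sat at the threshold. It was -0.57 without replicate 1 of the hypoxic vehicle, and the call was lost there and with no filter on low counts (-0.57). With the compound the value was 0.31 (interval 0.04 to 0.58, FDR 0.0580), and 0.47 (FDR 2.38e-05, still under 1.5-fold) without replicate 3.

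PDIA4 (ERp72), a disulfide isomerase of the ER lumen, was lowest in the hypoxic vehicle group. Its levels were 377.4, 354.0 and 365.6 CPM at 20% O2, 264.2, 274.3 and 275.3 CPM at 1% O2 and 340.4, 340.3 and 319.0 CPM with 32-134D. The 3 groups did not overlap. The log2 fold change was -0.43 in hypoxia (interval -0.57 to -0.29, edgeR FDR 4.25e-05) and 0.30 with the compound (interval 0.16 to 0.43, FDR 0.00138), both short of 1.5-fold. With total library size the hypoxia value was -0.65 and was called.

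The genes with a stress element in the window printed above therefore went in different directions in hypoxia. Among the 5 with ERSE, XBP1 and ERO1B rose, HSPA5 was at 0.35, HSP90B1 at -0.09 and CALR at -0.29 on the log2 scale. Of the 2 with ERSE-II, HERPUD1 rose by 2.15 and SDF2L1 fell by 0.60. Of the 3 with neither element in their windows, DNAJB9 and ERO1A rose by 3.07 and 2.01, and PDIA4 was at -0.43. GENCODE exons fill the 250 bases before the RefSeq start of DNAJB9 and ERO1A, as they do for HSP90B1. Sequence before the GENCODE start of these genes was therefore not searched, and only exact matches were counted.

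ERO1A and ERO1B oxidise protein disulfide isomerases and differ widely in abundance in these cells. ERO1A levels were 102.2, 100.6 and 110.0 CPM at 20% O2, 405.5, 416.7 and 440.5 CPM at 1% O2 and 142.6, 146.4 and 185.9 CPM with 32-134D. The groups did not overlap, and replicate 3 of 32-134D stood above the other 2. ERO1A was 4.03-fold higher in hypoxia (log2 2.01, interval 1.80 to 2.22, edgeR FDR 4.57e-10) and 2.66-fold lower with the compound (log2 -1.41, interval -1.61 to -1.21, FDR 3.14e-08). Without replicate 3 of 32-134D the compound value was -1.54. An antisense gene that shares 581 exon bases with ERO1A, AL133453.1, held 33 counts over all libraries, against 56013 for ERO1A.

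ERO1B, the paralog best known from pancreatic beta cells, was expressed at low counts. Its levels were 2.94, 2.51 and 2.89 CPM at 20% O2, from 41, 16 and 95 counts. They were 8.03, 6.27 and 6.74 CPM at 1% O2, from 303, 133 and 195 counts, and 3.52, 4.78 and 4.53 CPM with 32-134D, from 124, 142 and 99 counts. The 3 groups did not overlap at this depth. ERO1B was 2.49-fold higher in hypoxia (log2 1.31, interval 0.93 to 1.70, edgeR FDR 1.72e-05) and 1.66-fold lower with the compound (log2 -0.73, interval -1.07 to -0.38, FDR 0.00156). The compound call was lost without replicate 1 of 32-134D, at -0.54 (FDR 0.0240).

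The ratio of the paralogs within a library does not depend on how libraries are scaled. Per kilobase, ERO1A exceeded ERO1B by 24.4-, 27.6- and 26.9-fold at 20% O2, by 35.8-, 47.0- and 46.3-fold at 1% O2 and by 28.7-, 21.7- and 29-fold with 32-134D. The hypoxic vehicle libraries were all above those of the other groups, which overlapped each other. The mean log2 ratio was 4.72 ± 0.09 at 20% O2, 5.42 ± 0.22 at 1% O2 and 4.71 ± 0.24 with 32-134D (SD, n = 3). It was higher by 0.70 in hypoxia (exact two-sided permutation p = 0.1) and differed by -0.70 with the compound against hypoxic vehicle (exact permutation p = 0.1). With 3 libraries against 3, 0.1 is the smallest p this test can give, so neither difference could pass 0.05. With the compound against vehicle at 20% O2 the difference was -0.002 (exact permutation p = 1).

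**Figure D4:**
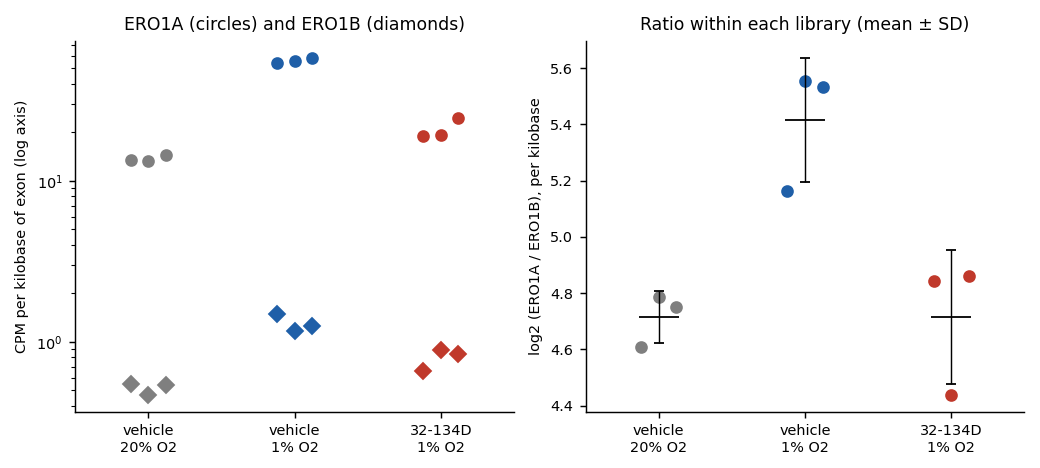
Left, ERO1A (circles) and ERO1B (diamonds) in CPM per kilobase of exon on a log axis, 1 point per library in each of the 3 groups. Right, log2 of the ratio of ERO1A to ERO1B within each library with the mean ± SD; the 3 hypoxic vehicle libraries, between 35.8- and 47.0-fold, lie above the 6 others, between 21.7- and 29-fold.

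32-134D at 1% O2 against vehicle at 20% O2 shows how far treated hypoxic cells differed from normoxic ones. DNAJB9, HERPUD1 and ERO1A were still higher, so 3 of the 10 genes were called higher, against 3.0% of all genes tested. DNAJB9 was 2.84-fold higher (log2 1.51, interval 1.31 to 1.71, edgeR FDR 2.27e-07) and HERPUD1 2.02-fold (log2 1.01, interval 0.86 to 1.16, FDR 4.01e-07). ERO1A was 1.51-fold higher (log2 0.60, interval 0.40 to 0.80, FDR 0.000933). The ERO1A value sat at the threshold and fell under it without replicate 3 of 32-134D (0.46, FDR 2.79e-05) or without replicate 2 of vehicle at 20% O2 (0.57). It was also under it with total library size (0.57) and with at least 10 counts required in every library (0.58). Each of these left 2 genes called.

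XBP1 passed the FDR alone in that comparison, at 0.25 (interval 0.10 to 0.39, edgeR FDR 0.0362). ERO1B was at 0.59 (interval 0.19 to 0.98, FDR 0.0576) and was called by DESeq2 (0.60, FDR 0.0357) and by edgeR without replicate 1 of 32-134D (0.73, FDR 0.0322). HSPA5 (0.06, FDR 0.652), HSP90B1 (-0.01, FDR 0.940), PDIA4 (-0.13, FDR 0.217), SDF2L1 (-0.29, FDR 0.180) and CALR (-0.24, FDR 0.0640) did not pass, and SDF2L1 was at -0.12 without replicate 3 of 32-134D. None of the 10 was called lower by edgeR, against 0.516% of all genes, while 2 had an unadjusted p below 0.05 and DESeq2 called 0. The groups did not overlap in 7 of the 10 genes, against 29.8% of all genes tested, and the median log2 fold change was 0.15 against 0.00.

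The 10 genes were set beside 126 other genes of the ER in 6 lists, of which 123 could be tested and AGR2, AGR3 and DERL3 had too few counts. In hypoxia 41 of the 123 rose (33.3%, against 19.5% of all genes tested) and 11 fell (8.94%, against 20.3%), with a median log2 fold change of 0.35. With 32-134D against hypoxic vehicle 10 were higher (8.13%, against 16.2% of all genes) and 24 lower (19.5%, against 13.7%), with a median of -0.22. Against vehicle at 20% O2, 6 were higher (4.88%, against 3.0%) and 1 lower (0.813%, against 0.516%), with a median of 0.09. The lists, like the 10 genes, were chosen with earlier results of these data known. These shares were not tested against those of all genes, and the counts per list that follow stand against the same background.

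The sensors and regulators of the unfolded protein response had the highest share of genes that rose among the 6 lists, 10 of 19, with 2 that fell and a median of 0.65. With the compound 7 were lower and 2 higher, with a median of -0.22. EIF2AK3, which encodes PERK, was at 1.45 in hypoxia and -1.10 with the compound, both called. ERN1, which encodes IRE1, rose by 1.19 in hypoxia and was at 77.1, 65.8 and 59.3 CPM there. With 32-134D it was at 42.7, 46.3 and 77.9 CPM, the last in replicate 3, and its -0.28 against hypoxic vehicle did not pass the test (edgeR FDR 0.232). Without that library it was at -0.60 (FDR 1.56e-05) and was called lower. ATF6 was at -0.06 in hypoxia and 0.36 with the compound, neither called. The compound value passed the FDR alone (edgeR FDR 0.0172), and was 0.18 (FDR 0.0472) without replicate 3. ATF6B, a relative of ATF6, fell by 1.06 in hypoxia and was 0.82 higher with the compound. CREB3L2, a further membrane-bound transcription factor, fell by 1.01 and was 0.77 higher. Of the integrated stress response genes in this list, ATF4, DDIT3, PPP1R15A and TRIB3 were at 2.13, 2.10, 2.85 and 2.62 in hypoxia. With the compound these 4 were at -1.19, -1.22, -1.43 and -1.14. TRIB3 was at 120.5, 121.7 and 231.1 CPM with 32-134D, and without replicate 3 its compound value was -1.52. The 6 genes called higher with 32-134D than in vehicle at 20% O2 were those 4, ERN1 (0.90) and PPP1R15B (0.90), the last chosen after its values were seen. Without replicate 3, ERN1 was at 0.58 and lost that call, and TRIB3 was at 1.09 in place of 1.48. EIF2AK3 passed the FDR alone in that comparison, at 0.34 (edgeR FDR 0.0205).

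Among 24 other ER chaperones and co-chaperones, 3 rose and 3 fell in hypoxia, with a median of 0.10. SDF2, the paralog of SDF2L1, rose by 1.01 and was at -0.77 with the compound, from 62.1 ± 3.84 CPM at 20% O2 to 125.1 ± 2.21 at 1% O2 and 73.3 ± 2.30 with 32-134D (SD, n = 3). SDF2L1 itself fell in hypoxia, as given above. SERPINH1, the collagen chaperone HSP47, rose by 0.62. The proline isomerases FKBP11 and FKBP7 fell by 1.98 and 1.03 in hypoxia and were 1.35 and 1.02 higher with the compound, and FKBP11 was the 1 gene of the lists called lower with 32-134D than at 20% O2 (-0.63). With the compound 2 of the 24 were called higher and 1 lower, with a median of -0.06.

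Among 23 other disulfide isomerases and oxidoreductases that could be tested, 7 rose and 1 fell in hypoxia, with a median of 0.36, and 1 was higher and 3 lower with the compound, with a median of -0.28. VKORC1, the vitamin K epoxide reductase, was at 1.33 in hypoxia and -1.09 with the compound, and GPX8, a peroxidase of the ER that removes the peroxide ERO1 makes, at 1.32 and -1.42. GPX8 went from 1.72 ± 0.392 CPM at 20% O2 to 4.57 ± 0.0631 at 1% O2 and 1.72 ± 0.158 with 32-134D (SD, n = 3). ERP27, a non-catalytic family member, fell by 2.22 in hypoxia and was 1.63 higher with the compound, or 1.80 without replicate 3 of 32-134D. Of the direct partners of ERO1A, chosen after their values were seen, ERP44, which retains ERO1 in the early secretory pathway, rose by 0.67 and was at -0.51 with the compound, the latter short of 1.5-fold. P4HB, the main disulfide isomerase, was at 0.33 and -0.45, both short of 1.5-fold.

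In ER-associated degradation, 11 of 23 genes rose and 1 fell in hypoxia, with a median of 0.47, and 7 were lower and 1 higher with the compound, with a median of -0.37. NGLY1, which strips N-glycans from retrotranslocated proteins, was at 1.85 and -1.45, and went from 29 ± 3.29 CPM at 20% O2 to 104.3 ± 8.12 at 1% O2 and 38.2 ± 0.511 with 32-134D (SD, n = 3). DERL1, a channel protein of this pathway, was at 1.34 and -0.86, and HERPUD2, the paralog of HERPUD1, at 1.34 and -1.06. SEL1L, the adaptor of the ubiquitin ligase HRD1, went the other way, at -0.71 and 0.81.

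Of 17 genes of the translocon and signal peptide processing, 7 rose and 1 fell in hypoxia, with a median of 0.50, and 4 were lower and 1 higher with the compound, with a median of -0.35. SEC61G, a small subunit of the translocon, was at 1.71 and -1.44, and SPCS2 and SPCS3, both of the signal peptidase, moved in opposite directions, SPCS2 at 0.92 and -0.76 and SPCS3 at -0.62 and 0.68. Without replicate 3 of 32-134D the SPCS3 value with the compound was 0.55 and was not called. Of 17 genes of N-glycan transfer and the calnexin cycle, 3 rose and 3 fell in hypoxia, with a median of 0.11, and 3 were higher and 2 lower with the compound, with a median of -0.08. UGGT1 and UGGT2, the folding sensors that return glycoproteins to calreticulin and calnexin, fell by 1.26 and 1.20 and were 1.22 and 1.28 higher with the compound. The oligosaccharyltransferase subunits OSTC and DAD1 were at 0.98 and 0.77 in hypoxia and at -0.65 and -0.70 with the compound.

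In the last 4 lists named, 0 genes were called in either direction by edgeR with 32-134D against vehicle at 20% O2, that is among the disulfide isomerases, ER-associated degradation, the translocon and N-glycan transfer. Over all genes tested the shares called were 3.0% higher and 0.516% lower. At the 1.5-fold threshold, lists of 17 to 23 genes with no call are near that background. In the same order, 1, 5, 3 and 1 higher genes passed the FDR alone, and 0 lower ones in each list. With no fold threshold, 1771 of all 22672 genes tested were higher and 553 lower. At an unadjusted p below 0.05 there were 7, 11, 6 and 3 higher genes and 2, 0, 0 and 0 lower ones. The share of all genes at that p was not counted. DESeq2 called 0 in each list.

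**Figure D5:**
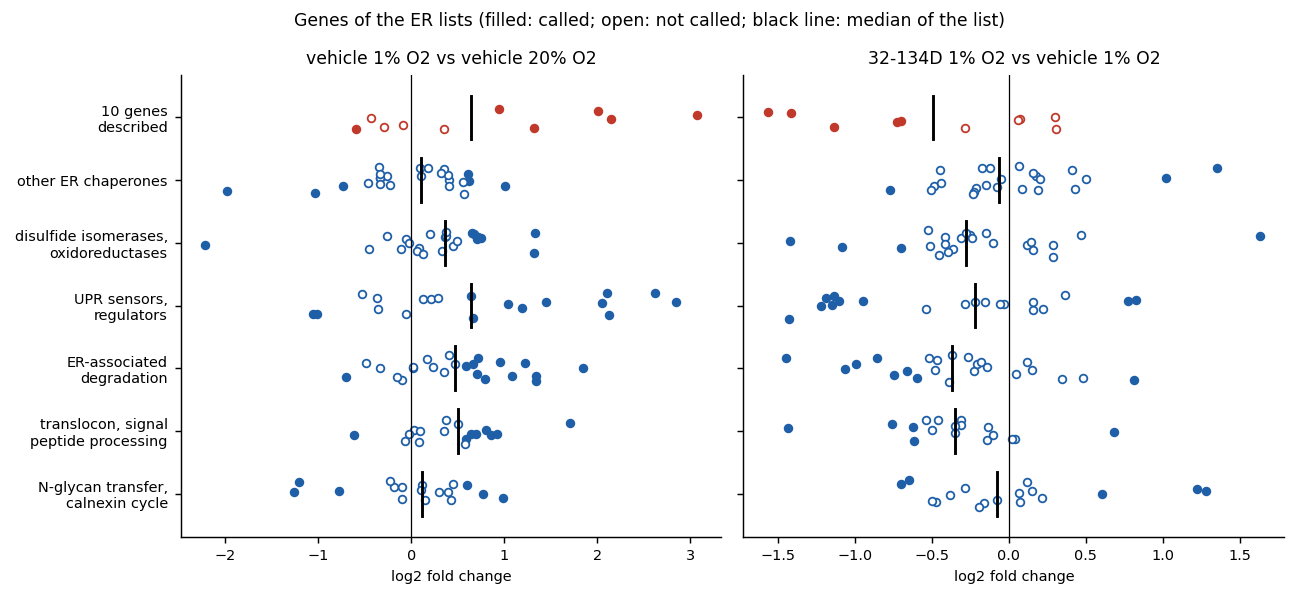
Log2 fold change of the 10 genes (red) and of the genes of 6 ER lists (blue) in hypoxia (left) and with 32-134D against hypoxic vehicle (right), 1 point per gene, filled where the gene was called, with a black line at the median of each list. The left medians run from 0.10 for other chaperones to 0.65 for regulators of the unfolded protein response, and the right medians from -0.06 to -0.37 over the 6 lists.

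The genes whose pattern lay nearest to ERO1A and HSPA5 were found among 13910 other genes with a mean of at least 1 CPM, by the root mean square difference of centred log2 CPM over the 9 libraries. For ERO1A, whose own SD over the libraries was 0.90, they were SEMA4B, a semaphorin (0.0534), WEE1, a cell cycle kinase (0.105), and IPMK, an inositol phosphate kinase (0.108). SEMA4B went from 43.1 ± 3.34 CPM at 20% O2 to 165.8 ± 12.3 at 1% O2 and 64.8 ± 7.23 with 32-134D (SD, n = 3). For HSPA5, whose SD was 0.17, they were RAB1A, a small GTPase of transport from the ER to the Golgi (0.0353), ZMYND11, a chromatin reader (0.0393), and AKIRIN1 (0.0410). RAB1A went from 215.7 ± 13.5 CPM at 20% O2 to 283.2 ± 4.69 at 1% O2 and 225.1 ± 18 with 32-134D (SD, n = 3). A small difference is easier to reach for a gene that varies as little as HSPA5, and the libraries compared are the same 9 throughout.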

How the data were processed

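RNA of 9 Hep3B samples was extracted with TRIzol, treated with DNase and sequenced on an Illumina NovaSeq. The RNA selection, the dose of 32-134D and the strand setting are not given in the labels, while the paper does state the dose. The labels name DMEM/F12 medium where the paper's methods name high-glucose DMEM. The authors deposited a table of raw counts. Reads had passed through FastQC and Bbduk trimming, STAR had aligned them to GRCh38, and featureCounts had assigned them to Ensembl genes. Tool versions and the treatment of reads shared between genes are not given in the sources used here. All columns were matched to samples by name, and every sample's group came from its label.

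The test was edgeR's quasi-likelihood test (edgeR 4.0.16, R 4.3.3) with TMM scaling, run on every gene whose summed count reached 10. A single fit held all 9 libraries, and its common biological coefficient of variation was 10.5%. Calls needed a Benjamini-Hochberg FDR below 0.05 over all genes tested and a fold change above 1.5, the filter and thresholds of the study's methods, which used DESeq2. Log2 CPM for the nearest patterns used a prior count of 2, and the paralog ratio a prior count of 0.5. Positions and exon lengths (union of all exons) came from GENCODE version 29, an earlier release than the Ensembl annotation used for counting but on the same assembly, and promoters from RefSeq.

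The members and lists were chosen with earlier results of these data known. The genes named were the 10 members, the 2 called genes with the largest change in each direction per list and comparison, ERN1, EIF2AK3, ATF6, ATF4, DDIT3, CA9, the cell type markers and the 3 nearest patterns of ERO1A and HSPA5. Overlapping genes, pseudogenes and any gene marked so in the text were chosen after their values were seen.

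Alternatives were DESeq2 1.42.0, other scalings, count filters and fold thresholds, fits of only the groups compared, the replicate number as a block, and the omission of single libraries. With 3 replicates per group, the standard errors were largest for ERO1B, with 16 counts in the smallest library, and next for SDF2L1.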

Additional observations from a re-analysis of the deposited data

How the results depend on the processing

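Of the member fold changes under the alternatives, 463 kept their direction and side of the thresholds, and the exceptions were 9 that lost a call, 5 that gained one and 3 that changed sign, all of HSP90B1 with 32-134D against vehicle at 20% O2 (0.0063 with no filter on low counts, and -0.0418 to 0.0451 when libraries were left out, above 0 without replicate 1 of vehicle at 20% O2 or replicate 3 of vehicle at 1% O2). Of the counts in hypoxia, the 1 member that fell became 2 with total library size, 0 with no filter, 0 above 2-fold and 3 with no fold threshold, and 0 to 1 when libraries were left out (0 without replicate 1 of vehicle at 1% O2). The 41 list genes that rose became 22 with total library size, 17 above 2-fold and 65 with no fold threshold. The 11 that fell became 7 above 2-fold and 23 with no fold threshold. Over all 22672 genes tested, the 4412 that rose became 3082, 2449 and 6317 in these 3 settings. The 4595 that fell over all genes became 5847, 3286 and 5814. With 32-134D against hypoxic vehicle, the 0 members called higher became 1 with no fold threshold, and the 5 called lower became 3 with total library size and 3 above 2-fold. The 10 list genes called higher became 5 above 2-fold and 19 with no fold threshold. The 24 called lower became 14 with total library size, 11 above 2-fold and 64 with no fold threshold. Over all 22672 genes tested, the 3675 called higher became 4754, 2451 and 4973 in these 3 settings. The 3101 called lower over all genes became 1847, 1189 and 5789. Against vehicle at 20% O2, the 681 called higher over all genes became 283 above 2-fold and 1771 with no fold threshold. The 6 list genes called higher became 2 and 21 in these settings. The 1 called lower became 2 with at least 10 counts in every library, 0 above 2-fold, and 0 to 1 when libraries were left out (0 without replicate 1 or 3 of vehicle at 20% O2, replicate 3 of vehicle at 1% O2 or replicate 2 of 32-134D). Fewer or more genes follow from a stricter or looser fold threshold by construction, and the cause of the other shifts was not tested.

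For replicates with the same number, correlations of their deviations ran from -0.246 to 0.107 over 9 pairs, against -0.209 to 0.306 over 18 pairs of different number. The pairs share libraries, so these ranges cannot show whether equal numbers mark a pairing. With the replicate block the counts were the same, 5 members higher and 1 lower in hypoxia and 5 lower with 32-134D, and no member's call changed. The paralog ratio kept its direction in hypoxia and with 32-134D against hypoxic vehicle in the alternatives run. ERO1B, with 16 counts in the smallest library, is the member whose precision depth limits most.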
